A study of Drosophila melanogaster with 17 samples.

Results

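The genes for eukaryotic translation initiation factors were followed in Drosophila eye imaginal discs across 3 genotypes, with and without gamma irradiation. Members were the genes whose symbol starts with eIF (upper and lower case as written) and which have a probe set annotated to that gene alone. The probe set with the highest mean over all arrays stood for each gene. This gave 40 of the 11982 genes with such a probe set. Of these, 30 are general factors, 9 are paralogs of low level and 1, eIF4G2, is a paralog that is not of low level. A paralog was called low where its mean was below 5.91, the median of all probe set means on the log2 scale. The members nearest that line were eIF4E6, a paralog with a mean of 5.55, and eIF2D, a general factor with a mean of 9.79. eIF1A, eIF2alpha, eIF2gamma and eIF4H1 were not analysed here.

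Initiation factors bring the small ribosomal subunit, the initiator tRNA and an mRNA together and position them at a start codon. The eIF4 proteins bind and unwind the capped end of the mRNA, eIF2 carries the initiator tRNA and is recharged by the exchange factor eIF2B, and eIF3 is the large scaffold on the small subunit. eIF5B joins the large subunit, and eIF6 holds that subunit apart until it is mature. Stress kinases that phosphorylate eIF2 slow initiation in many animals, and the supply of these factors is tied to growth in imaginal discs.

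RNA was measured on 17 Affymetrix Drosophila Genome 2.0 arrays from whole eye discs of larvae in the 3rd instar. The 6 groups were irradiated and untreated dDP mutant discs, irradiated and untreated de2f1 discs, and irradiated and untreated wild type discs. Irradiated discs were taken 4 h after a dose of 40 Gy. Each group had 3 arrays except irradiated wild type, which had 2, numbered 1 and 3. Its number 2 was not analysed here. The dDP discs are mutant for Dp, the partner that E2F proteins need to bind DNA. In de2f1 discs E2f1 was deleted in the posterior of the disc, so these discs are a mixture of cells. The sources used here give neither the alleles nor the way the gene was deleted. Nothing beyond the words biological replicate says whether arrays came from separate crosses, so p-values measure the spread between these samples.

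The Dp probe set averaged 8.61 ± 0.33 in irradiated and 8.42 ± 0.46 in untreated dDP discs, against 10.14 ± 0.13 and 10.39 ± 0.03 in wild type (SD, n = 3, 3, 2 and 3). All 10 eye disc markers were above the low-signal line on every array, and their mean was 10.71 to 11.03 throughout. That line, 4.60, is the highest lower quartile of any array. Salivary gland markers averaged 5.84 to 7.03 on the 3 untreated dDP arrays and 7.36, 12.58 and 12.46 on the irradiated dDP arrays. They averaged 6.74 on de2f1 untreated array 1, and 9.69 or more on the other arrays. These means hide a split. On dDP untreated array 1, ng1, ng2 and ng3 read 11.41, 10.12 and 11.86, and Sgs3 and Eig71Ee 5.26 and 5.21. On dDP irradiated array 1 the same genes read 10.17, 10.69 and 11.26, and 5.55 and 5.61. Fat body markers were highest on dDP untreated array 1, at 12.51. Col4a1, a member of that list, read 9.76 there and 9.68 to 10.26 on the untreated wild type arrays. Hemocyte markers averaged 7.75 to 8.38 on the dDP arrays, and 8.66 to 9.67 on all others. NimC1 of that list read 6.11 to 6.86 on the dDP arrays and 5.26 to 5.80 on the wild type arrays. Ring gland markers averaged 6.87 to 8.24 on the dDP arrays, and 8.60 to 9.65 on all others. On dDP untreated arrays 2 and 3 the actin control probe set at the 3-prime end exceeded that at the 5-prime end by 3.05 and 3.26. On the other 15 arrays it did so by 1.69 to 2.28. Fits without dDP untreated arrays 2 and 3 left array 1 alone for that group, so a call lost there need not mean a smaller difference. Array 1 was itself unlike the other 2: its mean correlation with its group was 0.983, against 0.990 for each of arrays 2 and 3. Dp read 8.94 on array 1, and 8.06 and 8.27 on arrays 2 and 3, so array 1 was nearer to wild type for Dp too. In whole discs a smaller share of a cell type and less RNA per cell cannot be told apart.

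Over the 6 groups, 19 of the 40 eIF genes (47.5%) differed somewhere by limma's moderated F test at a Benjamini-Hochberg adjusted p under 0.05, which is also the threshold of every call below. Of all 18769 probe sets tested, 39.4% did, and of the 4082 with a mean of at least 9.79, 67.5%. The 19 were 16 of the 30 general factors (53.3%, the share to set beside that of the bright probe sets) and 3 of the 9 low-level paralogs (33.3%). eIF6 had the smallest adjusted p of the members (2.12e-07), then eIF2A (1.41e-05), eIF3l (3.05e-05) and eIF3e (0.000375). The helicase eIF4A (0.622) and the cap-binding protein eIF4E1 (0.126) did not pass. The median log2 change of the general factors lay between -0.04 and 0.04 in all 8 contrasts of 2 groups, and that of all probe sets between -0.05 and 0.00. Under quantile normalization it was 0.091 and 0.075 for untreated dDP against wild type and de2f1, and -0.076 for irradiation in dDP.

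Irradiation was followed by a rise of eIF6 in all 3 genotypes. This factor binds the large ribosomal subunit, keeps it from joining the small one too early and takes part in its assembly. eIF6 had log2 signals of 12.26, 12.50 and 12.32 in irradiated dDP discs, against 10.94, 11.30 and 11.50 in untreated dDP discs. In de2f1 discs it had 12.02, 12.10 and 12.01 after irradiation, against 11.08, 11.08 and 11.03 untreated. In wild type it had 12.44 and 12.36 after irradiation, against 11.14, 10.99 and 11.06 untreated. Each irradiated array lay above each untreated array, whatever the genotype. The rise was 1.12 ± 0.11 in dDP (SE, 2.17-fold, adjusted p = 2.46e-05), 0.98 ± 0.11 in de2f1 (1.98-fold, 0.000114) and 1.34 ± 0.12 in wild type (2.53-fold, 9.5e-06). Of the 18769 probe sets, eIF6 ranked 103rd by size of rise in dDP, 107th in de2f1 and 87th in wild type. The rise held in all 15, 14 and 13 alternatives that were run, with values of 0.96 to 1.42, 0.95 to 1.01 and 1.30 to 1.40.

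**Figure D1:**
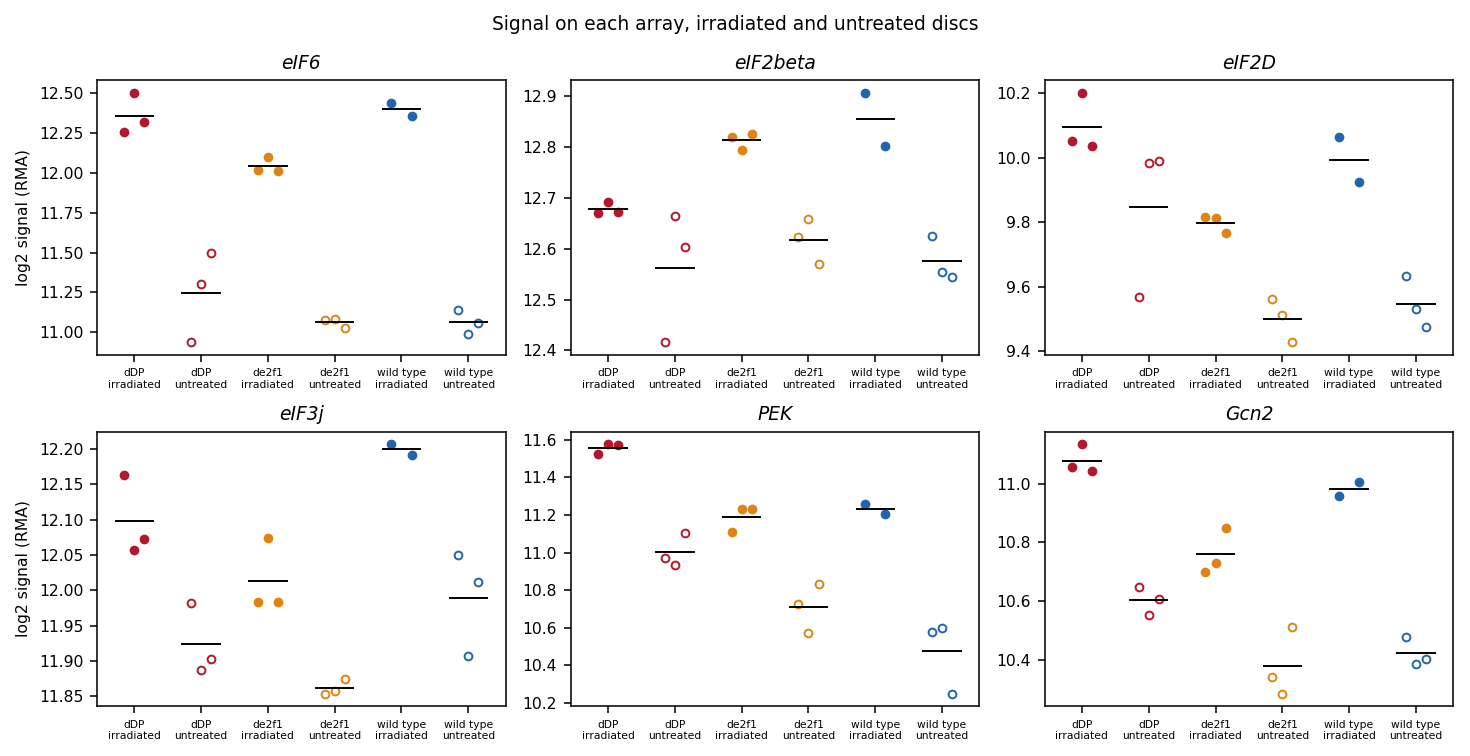
Log2 RMA signal (y axis) of eIF6, eIF2beta, eIF2D, eIF3j and the 2 eIF2 kinases PEK and Gcn2 on each array, by group (x axis). Filled points are irradiated arrays, open points untreated arrays, and lines are group means. Every irradiated eIF6 array is at 12.01 or above, and every untreated one at 11.50 or below.

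Few other eIF genes changed after irradiation, and none was called lower. In wild type discs 4 of 40 rose (10%), where 2.59% of all probe sets were called higher and 1.92% lower. In dDP discs 3 rose (7.5%), where the shares were 4.45% and 4.38%. In de2f1 discs eIF6 alone rose (2.5%), where they were 1.37% and 0.927%. Among the 4082 probe sets as bright as the general factors, 6.59%, 9.97% and 3.75% were called higher in wild type, dDP and de2f1, and 4.36%, 9.38% and 1.52% lower. Of the 30 general factors alone, 13.3%, 10% and 3.33% were called higher in these genotypes. At an unadjusted p under 0.05 there were 9, 9 and 5 eIF genes in the same 3 genotypes. Of all 18769 probe sets there were 2675, 4448 and 2168.

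The other calls were eIF2D and eIF2beta in wild type, eIF4EHP in dDP and eIF3j in both. eIF2D, known in mammals and yeast for tRNA delivery and for recycling of ribosomes, had 10.06 and 9.92 in irradiated wild type discs, against 9.63, 9.53 and 9.47 untreated. That was a rise of 0.45 ± 0.11 (adjusted p = 0.0275), with no overlap of the groups. In dDP it had 10.05, 10.20 and 10.04 irradiated, against 9.57, 9.98 and 9.99 untreated (0.25 ± 0.10, 0.132). In de2f1 it had 9.82, 9.81 and 9.77 irradiated, against 9.56, 9.51 and 9.43 untreated (0.30 ± 0.10, 0.18). The irradiated arrays were the higher ones in all 3 genotypes.

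eIF2beta, the subunit of eIF2 that contacts eIF5 and eIF2B, had 12.91 and 12.80 in irradiated wild type discs, against 12.62, 12.55 and 12.55 untreated, a rise of 0.28 ± 0.07 (0.0239). Its change was 0.20 ± 0.06 in de2f1 (0.134) and 0.12 ± 0.06 in dDP (0.252), neither called. eIF3j, a loosely bound eIF3 subunit that takes part in subunit recycling, had 12.21 and 12.19 in irradiated wild type discs, against 12.05, 11.91 and 12.01 untreated (0.21 ± 0.06, 0.049). In dDP it had 12.16, 12.06 and 12.07 irradiated, against 11.98, 11.89 and 11.90 untreated (0.17 ± 0.05, 0.0446), and in de2f1 its change of 0.15 ± 0.05 was not called (0.192). eIF4EHP, a cap-binding protein that represses chosen mRNAs in the fly embryo because it does not recruit eIF4G, had 10.08, 10.07 and 10.03 in irradiated dDP discs. Untreated dDP discs had 9.94, 9.67 and 9.58 (0.33 ± 0.08, 0.015). The untreated arrays 2 and 3 were the low ones and have the large actin difference: without them the change was 0.12 (0.491), and 0.17 with the actin difference as covariate (0.136). Its other probe set had 0.25 (0.497). The eIF3j change in dDP without those arrays was 0.12 (0.499).

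For these smaller changes the direction was shared more widely than the calls. eIF6, eIF2D, eIF2beta, eIF3j and eIF4EHP had all irradiated arrays above all untreated arrays in each of the 3 genotypes, 5 of 40 genes (12.5%). Of all probe sets 2.86% did so. All 5 genes are general factors (5 of 30, 16.7%), and of the bright probe sets 7.89% did so. eIF3b, a core scaffold subunit of eIF3, was the only eIF gene with all irradiated arrays below in each genotype (1 of 40, where 3.38% of all probe sets and 9.06% of the bright ones did so), and its changes of -0.04, -0.09 and -0.09 were not called. The calls other than eIF6 depended on single arrays. In wild type, eIF6 was the only call left when untreated array 2, untreated array 3 or either irradiated array was omitted. In dDP it was the only call left without untreated array 2 or 3, the eIF3j call was also lost without any 1 irradiated array (0.0637 to 0.146), and 11 eIF genes were called without untreated array 1.

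**Figure D2:**
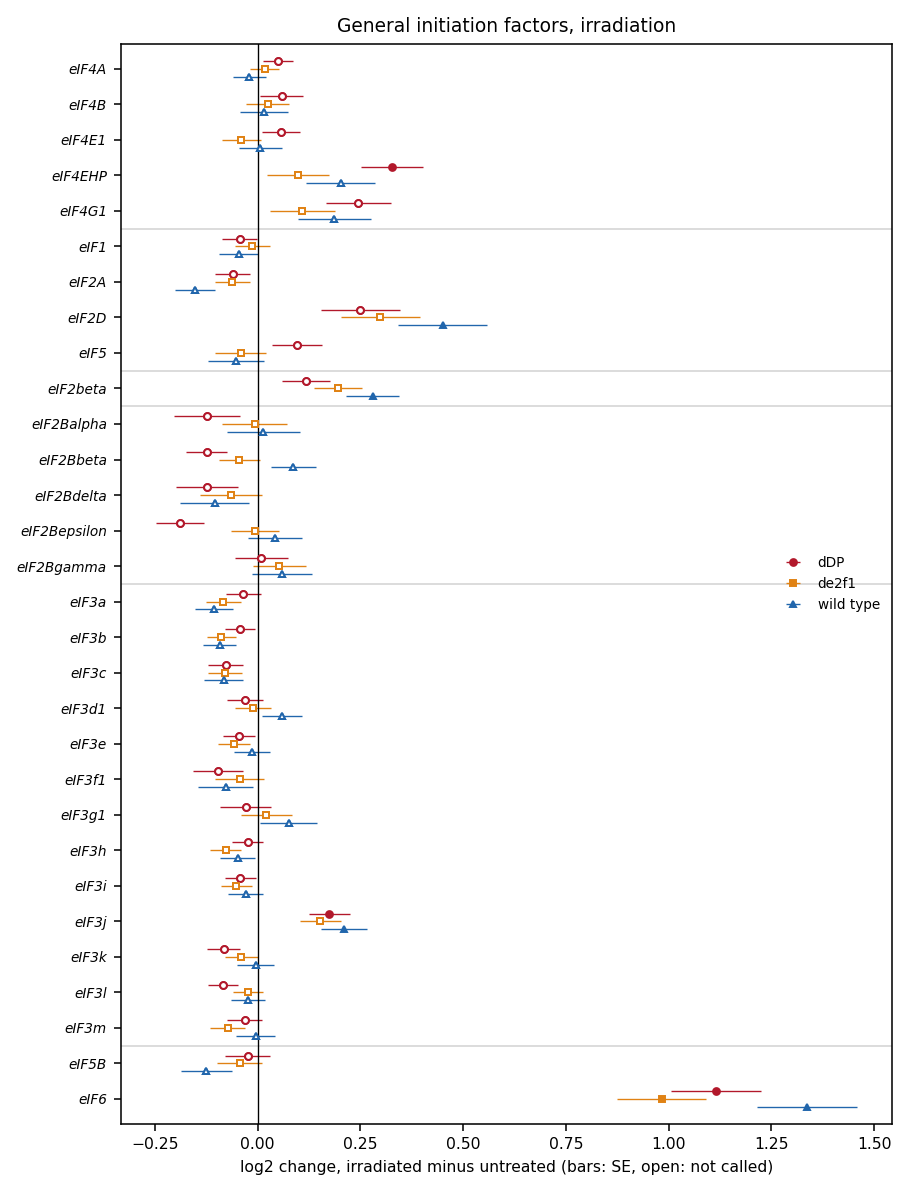
Log2 change after irradiation (x axis, irradiated minus untreated, bars are SE) of the 30 general factors (y axis, grouped by role) in dDP, de2f1 and wild type discs. Filled symbols passed the test. eIF6 lies between 0.98 and 1.34, and all other changes lie between -0.19 and 0.45.

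The scaffold, helicase and exchange factors did not pass after irradiation. eIF4A had 14.12, 14.09 and 14.14 in irradiated dDP discs, against 14.06, 14.05 and 14.08 untreated, and the 95% interval of its change was -0.03 to 0.13. It had 14.06, 14.07 and 14.05 in irradiated de2f1 discs, against 14.06, 14.03 and 14.04 untreated (-0.06 to 0.09), and 14.06 and 14.04 in irradiated wild type, against 14.10, 14.06 and 14.07 untreated (-0.11 to 0.07). The de2f1 and wild type groups overlapped and the dDP groups did not, by a narrow margin. eIF4E1, the main cap-binding protein, ranged from 12.96 to 13.21 over the 17 arrays and had intervals of -0.04 to 0.16, -0.14 to 0.06 and -0.11 to 0.12 in dDP, de2f1 and wild type. eIF4G1, the scaffold that joins cap, helicase and eIF3, had wider ones of 0.07 to 0.42, -0.06 to 0.28 and -0.01 to 0.38. Its arrays in dDP were 12.75, 12.72 and 12.81 irradiated, against 12.71, 12.48 and 12.35 untreated (0.25 ± 0.08, adjusted p = 0.0754), with no overlap. It was called without dDP untreated array 1 (0.34, 0.00286), with array weights (0.30, 0.00561) and without the dimmest probe sets (0.049). Without dDP untreated arrays 2 and 3 its change was 0.05 (0.886), and with the actin difference as covariate 0.14 (0.514). In de2f1 eIF4G1 had 12.88, 12.74 and 12.91 irradiated, against 12.79, 12.76 and 12.65 untreated, and in wild type 12.95 and 12.88, against 12.79, 12.73 and 12.68. None of the 5 subunits of eIF2B was called in any genotype, and their median changes were -0.12 in dDP, -0.01 in de2f1 and 0.04 in wild type. Of the 13 eIF3 subunits, 12 were not called in each of dDP and wild type and 13 in de2f1.

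The 2 kinases that phosphorylate eIF2 rose beside eIF6 in every genotype. They belong to a list of 30 regulators and partners of initiation, 22 of which were measured. Thor, the fly 4E-BP, and Tor were not analysed here. PEK, the kinase of the endoplasmic reticulum, had 11.52, 11.58 and 11.57 in irradiated dDP discs, against 10.97, 10.93 and 11.10 untreated (0.56 ± 0.09, adjusted p = 0.00144). It had 11.11, 11.23 and 11.23 in irradiated de2f1 discs, against 10.73, 10.57 and 10.83 untreated (0.48 ± 0.09, 0.00897). In wild type it had 11.26 and 11.21 irradiated, against 10.58, 10.60 and 10.25 untreated (0.76 ± 0.10, 0.000295). The groups did not overlap in any genotype, and only the de2f1 call was lost in an alternative (0.46, 0.0515 without de2f1 irradiated array 3).

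Gcn2, the kinase that senses uncharged tRNA, had 11.06, 11.14 and 11.04 in irradiated dDP discs, against 10.65, 10.55 and 10.61 untreated (0.48 ± 0.06, 0.000265). It rose by 0.38 ± 0.06 in de2f1 (0.00327) and 0.56 ± 0.07 in wild type (0.000171). The de2f1 call of Gcn2 was lost when those arrays were fitted alone (0.0697). crc, the fly ATF4 whose translation increases when eIF2 is phosphorylated, rose by 0.17 ± 0.04 in dDP (0.0191), and had changes of 0.11 ± 0.04 in de2f1 (0.284) and 0.14 ± 0.05 in wild type (0.143). The crc call was lost in 9 of 15 alternatives, among them without dDP untreated array 2 or 3 (0.0598 and 0.0676) and without irradiated array 2 or 3 (0.0587 and 0.0665).

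Over the whole list, 6 of 22 regulators rose and 1 fell in dDP, where 4.45% of all probe sets were called higher and 4.38% lower. In de2f1 2 rose, beside 1.37% of all probe sets, and in wild type 3 rose, beside 2.59%. Of the bright probe sets 9.97%, 3.75% and 6.59% were called higher in dDP, de2f1 and wild type. In dDP 9.38% of them were called lower. PPP1R15, which directs a phosphatase to eIF2, rose by 0.23 ± 0.06 in wild type (0.0407), and that call was lost without any 1 of the 5 wild type arrays (0.0734 to 0.378). REPTOR, a transcription factor held back by TORC1, rose by 0.77 ± 0.16 in dDP (0.00685), and had 0.34 without untreated arrays 2 and 3 (0.327). Of the 6 elongation and release factors measured, limma called 0 in each genotype. At an unadjusted p under 0.05 there were 2, 0 and 0 in dDP, de2f1 and wild type. Of all 18769 probe sets there were 4448, 2168 and 2675.

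The dDP mutation was accompanied by a change in 15 of 40 eIF genes in untreated discs, 9 higher (22.5%) and 6 lower (15%). Of the 30 general factors alone, 23.3% were called higher and 16.7% lower. Of all probe sets 12.1% were called higher and 15.9% lower, and of the bright ones 16.6% and 30%, so the count alone does not set the eIF genes apart. The higher genes were 5 eIF3 subunits, eIF2A, eIF2D and the paralogs eIF4E3 and eIF4E4. eIF2A, a protein studied in yeast and mammals as another carrier of initiator tRNA, had 12.94, 13.00 and 12.98 in dDP discs, against 12.64, 12.63 and 12.65 in wild type. That was 0.33 ± 0.04 higher (1.25-fold, adjusted p = 5.14e-05). eIF3l, a peripheral subunit of eIF3, had 13.00, 13.03 and 13.01 in dDP, against 12.72, 12.68 and 12.69 in wild type (0.32 ± 0.04, 1.25-fold, 1.42e-05).

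In all, 5 of the 13 eIF3 subunits (38.5%) were higher in untreated dDP discs, beside 12.1% of all probe sets and 16.6% of the bright ones. limma called 0 of the 13 lower, and 7 had an unadjusted p under 0.05. Of all 18769 probe sets 6875 had an unadjusted p under 0.05 in that comparison. eIF3e, which in mammals is a docking site for regulators of the complex, had 12.59, 12.67 and 12.70 in dDP, against 12.43, 12.42 and 12.41 in wild type (0.23 ± 0.04, 0.000412). eIF3h, its neighbour in the complex, had 12.61, 12.62 and 12.61 in dDP, against 12.45, 12.44 and 12.43 in wild type (0.17 ± 0.04, 0.00332). eIF3f1 had 12.31, 12.57 and 12.52, against 12.24, 12.22 and 12.19 (0.25 ± 0.06, 0.00553). All dDP arrays lay above all wild type arrays for these 3 genes. eIF3g1, an RNA-binding subunit, was higher by 0.19 ± 0.06 (0.0336). The subunits eIF3a (-0.11 ± 0.04, 0.0767) and eIF3b (0.04 ± 0.04, 0.527), which form the core with eIF3c (0.09 ± 0.04, 0.129), were not called.

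The lower genes were eIF1, eIF5, eIF5B, eIF4E1, eIF4EHP and the paralog eIF4E6. By role, 2 of the 5 cap-binding and unwinding factors were lower and 1 of the 2 subunit joining factors. Of the 4 factors of scanning and start codon selection 2 were lower and 2 higher. These counts are small, and 30% of the bright probe sets were called lower and 16.6% higher. eIF5, the protein that triggers GTP hydrolysis by eIF2 at the start codon, had 12.00, 11.82 and 11.73 in untreated dDP discs, against 12.13, 12.17 and 12.13 in wild type (-0.29 ± 0.06, 0.0025). eIF4EHP had 9.94, 9.67 and 9.58 in dDP, against 10.07, 10.08 and 10.04 in wild type (-0.33 ± 0.08, 0.00396). eIF5B had 11.76, 11.63 and 11.64 in dDP, against 11.90, 11.85 and 11.89 in wild type (-0.20 ± 0.05, 0.0118). For all 3 the dDP arrays were below the wild type arrays, and dDP arrays 2 and 3 were the lowest. eIF1, which guards the fidelity of start codon choice, had 13.44, 13.42 and 13.36 in dDP, against 13.58, 13.51 and 13.56 in wild type (-0.14 ± 0.04, 0.0213). eIF4E1 had 13.11, 13.00 and 12.96 in dDP, against 13.12, 13.17 and 13.21 in wild type (-0.14 ± 0.05, 0.0356). Both shifts were small, and the dDP arrays again lay below. eIF4G1 had -0.22 ± 0.08 (0.0575), and eIF4A -0.01 ± 0.04 (0.864), neither called.

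Many of these differences were larger on dDP untreated arrays 2 and 3, those with the larger actin difference. The Dp signal was also lower on arrays 2 and 3 (8.06 and 8.27) than on array 1 (8.94), and these features cannot be told apart here. eIF2D had 9.57 on array 1 and 9.98 and 9.99 on arrays 2 and 3, against 9.47 to 9.63 in untreated wild type discs (0.30 ± 0.10, 0.0304, groups overlapping). Without arrays 2 and 3, 5 of the 15 calls remained, those of eIF2A, eIF3e, eIF3h, eIF3l and the paralog eIF4E6. There eIF5 had -0.14 (0.149), eIF4EHP -0.12 (0.247), eIF5B -0.12 (0.279), eIF3f1 0.10 (0.306), eIF3g1 0.03 (0.817) and eIF2D 0.02 (0.898). The calls of eIF2A, eIF3e, eIF3l and eIF4E6 held in all 15 alternatives. eIF3h lost its call only where the arrays of the 2 groups were fitted alone (0.0668). The calls of eIF1, eIF4E1, eIF2D and eIF3g1 were also lost without single wild type or dDP arrays (0.0658 to 0.145). eIF4G1 and eIF6 moved with the same arrays: without array 1 they were called (-0.32, 0.00245 and 0.34, 0.00451), and without arrays 2 and 3 they had -0.02 (0.905) and -0.13 (0.388), where eIF6 has the opposite sign. With the actin difference as covariate 8 of 40 eIF genes were called. Marker levels of other tissues moved with this comparison too. Salivary gland markers averaged 5.84 to 7.03 on untreated dDP arrays, against 9.69 to 11.65 on untreated wild type arrays. Fat body markers averaged 8.31 to 12.51, against 7.06 to 7.84. The salivary gland mean does not follow every member: ng1, ng2 and ng3 were high on dDP array 1. With the salivary gland mean as covariate, eIF1 (0.0639), eIF2D (0.184), eIF3g1 (0.148) and eIF4E1 (0.108) lost their calls, as did the paralogs eIF4E3 and eIF4E4. Fat body, hemocyte and ring gland markers were not used as covariates, and their part was not tested.

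**Figure D3:**
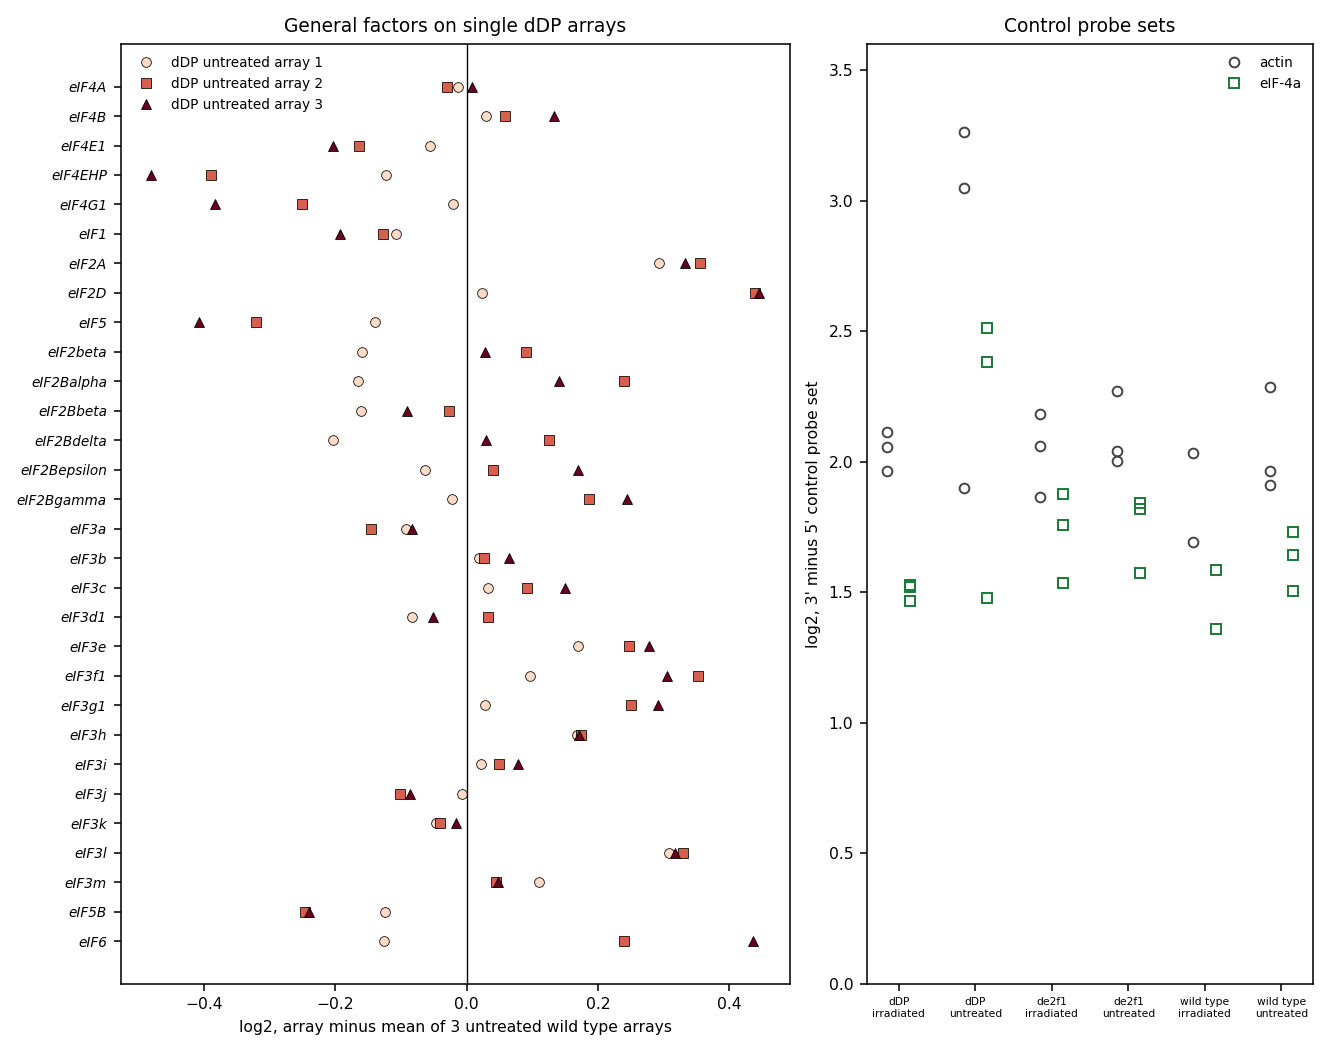
Left, log2 signal of each general factor (y axis) on the 3 untreated dDP arrays minus the untreated wild type mean (x axis). Right, log2 difference (y axis) between the 3-prime and 5-prime control probe sets of actin and eIF-4a on every array, by group (x axis). dDP untreated arrays 2 and 3 have the 2 highest actin differences, 3.05 and 3.26, and array 1 lies nearest to wild type for 20 of the 30 factors.

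The array also carries control probe sets along the eIF-4a transcript, which gives the same comparison within an initiation factor. The 3-prime control of eIF-4a read 14.01 and 14.07 on dDP untreated arrays 2 and 3, and 14.04 to 14.13 on the other 15. The 5-prime control read 11.63 and 11.56 on those arrays, and 12.18 to 12.72 on the others. The difference between the ends was therefore 2.38 and 2.51 there, and 1.36 to 1.88 elsewhere, while the eIF4A probe set of the main comparison read 14.05 and 14.08.

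In irradiated discs, where no dDP array had such a control difference, 8 of 40 eIF genes differed between dDP and wild type, 5 higher (12.5%) and 3 lower (7.5%). Of all probe sets 10.2% were called higher and 13% lower, and of the bright ones 15% and 22.4%. Of the 30 general factors alone, 16.7% were called higher and 6.67% lower. The 5 higher genes were also called higher in untreated discs. The wild type arrays of the 2 conditions are separate, as are the dDP arrays. eIF2A had 12.91, 12.88 and 12.94 in irradiated dDP discs, against 12.49 and 12.49 in irradiated wild type (0.42 ± 0.05, 1.34-fold, adjusted p = 1.92e-05). eIF3l had 12.92, 12.95 and 12.92, against 12.69 and 12.66 (0.26 ± 0.04, 0.000346). Neither pair of groups overlapped.

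eIF3e had 12.61, 12.59 and 12.61 in irradiated dDP discs, against 12.41 and 12.40 in wild type (0.20 ± 0.04, 0.00376). eIF3h was higher by 0.20 ± 0.04 (0.00363), with 12.57, 12.58 and 12.62, against 12.40 and 12.38. eIF3f1 was higher by 0.23 ± 0.07 (0.0211), with 12.34, 12.36 and 12.41, against 12.14 and 12.13. The call of eIF3f1 was lost without wild type irradiated array 1 or 3 (0.0909 and 0.111) and without dDP irradiated array 3 (0.0664). So 4 of 13 eIF3 subunits (30.8%) were higher in irradiated dDP discs, beside 10.2% of all probe sets and 15% of the bright ones. eIF3g1 (0.09 ± 0.07, 0.44) was not called.

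Among the lower genes was a subunit of the exchange factor. eIF2Bbeta, a regulatory subunit of eIF2B, had 9.86 on all 3 irradiated dDP arrays, against 10.20 and 10.13 in irradiated wild type (-0.30 ± 0.06, 0.00106), and the call held in all 13 alternatives. In untreated discs it had 9.92, 10.05 and 9.99 in dDP, against 10.04, 10.14 and 10.05 in wild type, which overlap (-0.09 ± 0.05, 0.199). The difference between these 2 differences, -0.21 ± 0.07, was not called (0.411). eIF1 had 13.39, 13.34 and 13.36 in dDP, against 13.50 and 13.51 (-0.14 ± 0.05, 0.0482), and its call was lost without any 1 of the 5 arrays (0.0575 to 0.179). eIF5 (-0.14 ± 0.07, 0.172), eIF4EHP (-0.21 ± 0.08, 0.0977) and eIF5B (-0.10 ± 0.06, 0.275) were not called in irradiated discs, though each was lower on average in dDP.

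**Figure D4:**
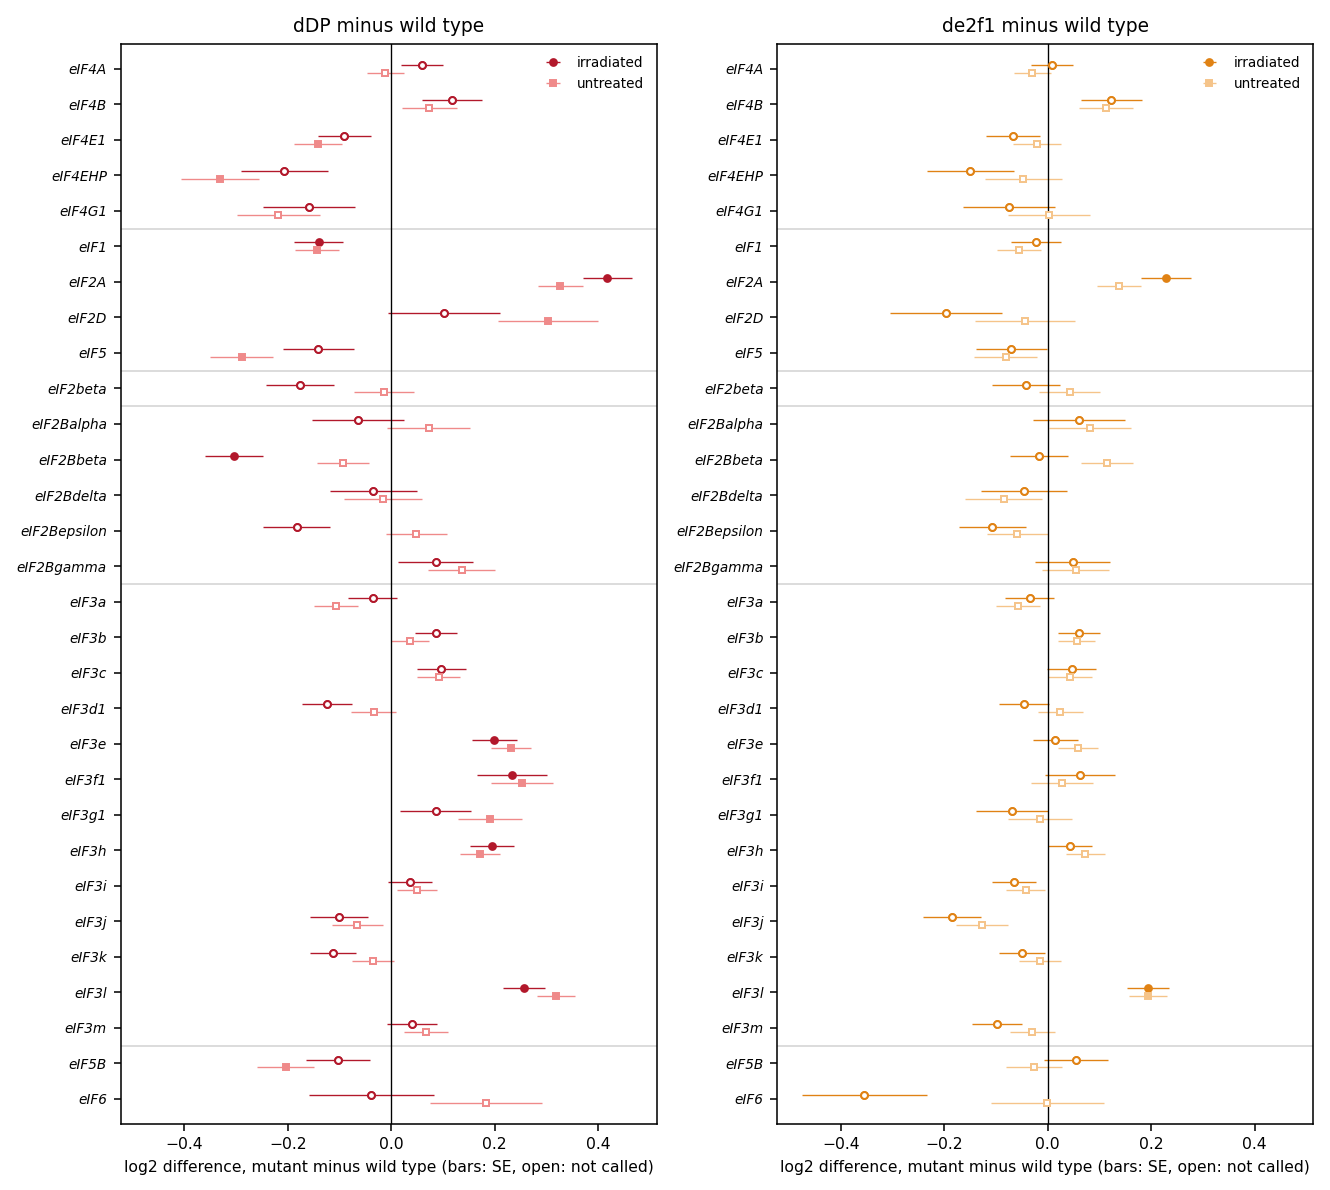
Log2 difference between mutant and wild type discs (x axis, bars are SE) for the 30 general factors (y axis, grouped by role), with dDP on the left and de2f1 on the right, irradiated and untreated. Filled symbols passed the test. eIF2A reaches 0.42 in irradiated dDP discs, and eIF3l is filled in all 4 comparisons.

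The 2 mutants were also set against each other in untreated discs, where 11 of 40 eIF genes differed, 6 higher in dDP (15%) and 5 lower (12.5%). Of all probe sets 10.4% were called higher and 11.9% lower. Of the bright ones 14.2% were called higher and 24.9% lower, and of the 30 general factors 20% and 13.3%. The higher genes were eIF2D (0.35 ± 0.10, adjusted p = 0.018), eIF3f1 (0.22 ± 0.06, 0.0148), eIF3g1 (0.21 ± 0.06, 0.0281), eIF2A (0.19 ± 0.04, 0.00545), eIF3e (0.17 ± 0.04, 0.00483) and eIF3l (0.13 ± 0.04, 0.0234). The lower ones were the paralog eIF4E6 (-0.62 ± 0.13, 0.00298), eIF4EHP (-0.28 ± 0.08, 0.0136), eIF5 (-0.21 ± 0.06, 0.0251), eIF2Bbeta (-0.21 ± 0.05, 0.00739) and eIF5B (-0.18 ± 0.05, 0.0314). This comparison shares its dDP arrays with that against wild type. Without dDP untreated arrays 2 and 3, which leaves array 1, eIF2Bbeta had -0.28 and eIF4E6 -0.66. There eIF2A had 0.16, eIF3e 0.11, eIF3l 0.12, eIF2D 0.07, eIF4EHP -0.08 and eIF5 -0.06, each smaller in size than in the full fit. With array 1 as the only dDP array, that fit does not show that these 6 genes still differed. Without single dDP or de2f1 arrays the count of called genes ranged from 4 to 17.

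The discs with E2f1 deleted in the posterior had 3 calls untreated and 2 irradiated. In untreated de2f1 discs 3 of 40 eIF genes were higher (7.5%) and limma called 0 lower, with 8 at an unadjusted p under 0.05 in either direction. Of all probe sets 3.89% were called higher and 5.1% lower, and 3825 of the 18769 had an unadjusted p under 0.05. Of the bright ones 5.56% were called higher and 6.74% lower. The only general factor was eIF3l, with 12.91, 12.89 and 12.87 in de2f1 discs, against 12.72, 12.68 and 12.69 in wild type (0.19 ± 0.04, 1.14-fold, adjusted p = 0.00344). This call held in all 14 alternatives. eIF2A had 12.81, 12.81 and 12.72 in de2f1, against 12.64, 12.63 and 12.65 in wild type (0.14 ± 0.04, 0.0648), without overlap but not called.

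In irradiated de2f1 discs 2 of 40 eIF genes were higher (5%) and 0 lower by limma, with 4 at an unadjusted p under 0.05. There 3.68% of all probe sets were called higher and 4.94% lower, and 3827 of the 18769 had an unadjusted p under 0.05. Of the bright ones 6.49% were called higher and 6.79% lower. eIF2A had 12.70, 12.78 and 12.68, against 12.49 and 12.49 in irradiated wild type (0.23 ± 0.05, 0.0078). eIF3l had 12.83, 12.89 and 12.88, against 12.69 and 12.66 (0.19 ± 0.04, 0.00792). These are 2 of the genes called in dDP discs, where their values against the same wild type arrays were 0.42 and 0.26. Both calls rest on the 2 wild type arrays: without array 3 the adjusted p was 0.0669 for eIF2A and 0.0955 for eIF3l, and without array 1 it was 0.0652 for eIF2A. eIF6 in irradiated de2f1 discs was below irradiated wild type on all arrays (-0.35 ± 0.12, 0.0966), not called. It was called with array weights (0.00512), with the actin difference as covariate (0.00203) and with those arrays fitted alone (0.0205).

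The irradiation effect itself was compared between each mutant and wild type. limma called 0 of 40 eIF genes in dDP and 0 in de2f1, with 3 and 3 at an unadjusted p under 0.05. Of all probe sets 0.202% and 0.0533% were called, and 1777 and 769 of the 18769 had an unadjusted p under 0.05. For eIF6 the effect in dDP minus that in wild type was -0.22 ± 0.16 (95% interval -0.57 to 0.13, adjusted p = 0.681), and without dDP untreated arrays 2 and 3 it turned to 0.09 (0.926). In de2f1 the difference was -0.35 ± 0.16 (-0.70 to -0.00, adjusted p = 1). For eIF2D the estimates were -0.20 ± 0.14 and -0.15 ± 0.14, and for eIF2beta -0.16 ± 0.09 and -0.08 ± 0.09. Both eIF6 intervals are wide. The dDP one included 0, and the de2f1 one ended just below 0. eIF6 was thus among the eIF genes at an unadjusted p under 0.05 in de2f1, but it did not pass the adjusted threshold. Smaller differences in the eIF6 response were not detectable with this number of arrays.

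**Figure D5:**
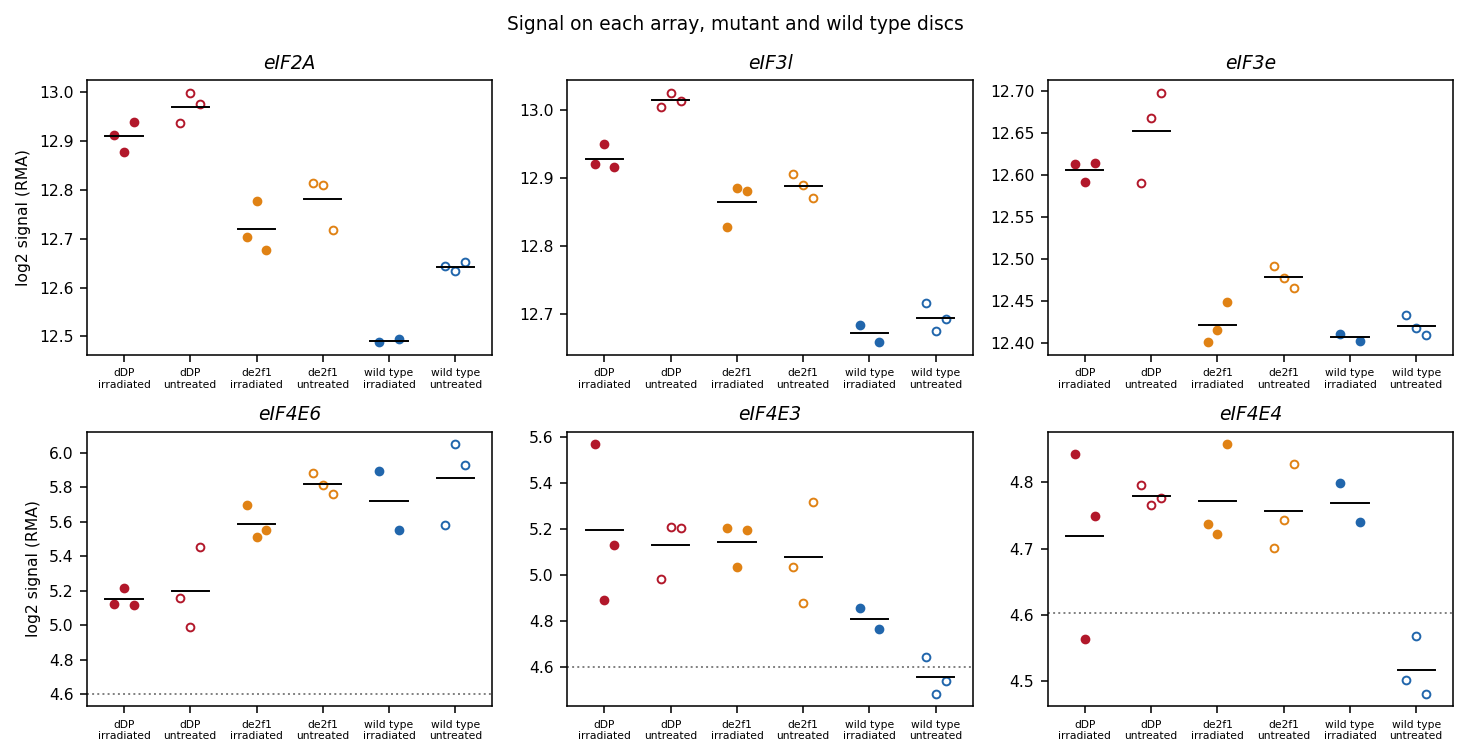
Log2 RMA signal (y axis) of eIF2A, eIF3l and eIF3e and of the paralogs eIF4E6, eIF4E3 and eIF4E4 on each array, by group (x axis). Filled points are irradiated arrays, open points untreated arrays, lines are group means, and the dotted line at 4.60 is the low-signal line. eIF4E6 lies at 5.45 or below on all 6 dDP arrays, and at 5.51 or above on all others.

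The 9 low-level paralogs (eIF3d2, eIF3f2, eIF3g2, eIF4E3, eIF4E4, eIF4E5, eIF4E6, eIF4E7 and eIF4H2) had means of 4.22 to 5.55. After irradiation limma called 0 of them in dDP, de2f1 or wild type, with 0, 0 and 1 at an unadjusted p under 0.05. Of all 18769 probe sets there were 4448, 2168 and 2675. eIF4E6, a short copy of the cap-binding protein, was lower in dDP discs. It had 5.13, 5.21 and 5.12 in irradiated dDP discs, against 5.90 and 5.55 in irradiated wild type (-0.57 ± 0.14, adjusted p = 0.0101). It had 5.16, 4.99 and 5.45 in untreated dDP discs, against 5.58, 6.05 and 5.93 in untreated wild type (-0.65 ± 0.13, 0.00148). The groups did not overlap in either condition. The irradiated call was lost without wild type irradiated array 1 (-0.40, 0.156). In de2f1 it had differences from wild type of -0.14 ± 0.14 (irradiated) and -0.03 ± 0.13 (untreated), not called.

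eIF4E3, known in flies for a role in spermatogenesis, and eIF4E4 were called higher in both untreated mutants, near the low-signal line. eIF4E3 had 4.98, 5.21 and 5.21 in dDP and 5.04, 4.88 and 5.32 in de2f1, against 4.64, 4.48 and 4.54 in wild type. eIF4E4 had 4.80, 4.77 and 4.78 in dDP and 4.70, 4.74 and 4.83 in de2f1, against 4.50, 4.57 and 4.48 in wild type. The differences were 0.58 ± 0.14 in dDP (0.00773) and 0.52 ± 0.14 in de2f1 (0.0371) for eIF4E3, and 0.26 ± 0.07 (0.00775) and 0.24 ± 0.07 (0.0355) for eIF4E4. Both mutants were set against the same 3 wild type arrays, whose means for both genes were below 4.60. In irradiated discs neither gene was called in either mutant. With the salivary gland marker mean of each array as a covariate, the dDP differences were 0.31 (0.213) and 0.20 (0.128). The de2f1 calls were lost without any 1 wild type array (0.0569 to 0.122) and without de2f1 array 1 or 3 (0.0528 to 0.15). eIF3d2, eIF3f2, eIF3g2, eIF4E5, eIF4E7 and eIF4H2 were called in no comparison.

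eIF4G2, a second eIF4G known in flies for a role in the male germ line, was not of low level and was called in no comparison. Its arrays in untreated dDP discs spread from 11.21 on array 1 to 10.83 and 10.39 on arrays 2 and 3, against 11.17, 11.35 and 11.04 in untreated wild type (-0.38 ± 0.18, 0.149).

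Both genes with more than 1 probe set gave different readings. eIF4B, a cofactor of the helicase, had 4, and the one with the highest mean was called in no contrast. Another had 11.12, 10.97 and 10.96 in irradiated dDP discs, against 10.96, 9.79 and 9.52 untreated, a change of 0.92 (adjusted p = 0.0488). Untreated arrays 2 and 3 were again the low ones. The remaining bright one was lower in untreated dDP than in wild type discs (-0.22, 0.0419). The second probe set of eIF4EHP differed by 0.07 between untreated dDP and wild type discs and by 0.12 between dDP and de2f1 (0.853 and 0.734), the opposite direction to the chosen one. The stretch of transcript that each probe set covers is not known here.

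Regulators of initiation moved in both directions between the genotypes. In untreated dDP discs 5 of 22 were higher and 5 lower than in wild type, beside 12.1% and 15.9% of all probe sets. Of the bright probe sets the shares were 16.6% and 30%. mxt, a fly protein that binds eIF4E and eIF3 as a scaffold, had 9.78, 9.94 and 9.99 in dDP, against 10.37, 10.29 and 10.42 in wild type (-0.46 ± 0.06, adjusted p = 3.49e-05). DENR, which lets ribosomes reinitiate after short reading frames, fell by 0.34 ± 0.05 (7.2e-05). NAT1, a relative of eIF4G that lacks the cap-binding partner site, had 13.22, 13.06 and 13.03 in dDP, against 13.53, 13.45 and 13.42 in wild type (-0.36 ± 0.05, 0.000133). Lk6, the kinase that phosphorylates eIF4E, had 12.81, 12.71 and 12.69 in dDP, against 12.24, 12.35 and 12.27 in wild type (0.45 ± 0.06, 6.16e-05). These 4 calls held in all 15 alternatives.

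In irradiated discs the same 4 were called in dDP against wild type: DENR -0.51 ± 0.05 (6.88e-06), mxt -0.54 ± 0.06 (2.9e-05), NAT1 -0.24 ± 0.06 (0.00808) and Lk6 0.63 ± 0.07 (9.74e-06). The NAT1 call was lost without wild type irradiated array 1 (0.066). PEK, which rose after irradiation, was also higher in dDP than in wild type discs, untreated (0.53 ± 0.09, 0.00046) and irradiated (0.33 ± 0.10, 0.03). The untreated PEK call held in all 15 alternatives, and the irradiated one was lost in 5 of 13. Untreated dDP discs were above de2f1 discs for PEK as well (0.29 ± 0.09, 0.0313), a call lost in 8 of 15 alternatives. In untreated discs dDP was also below de2f1 for DENR (-0.31 ± 0.05, 0.000259), NAT1 (-0.28 ± 0.05, 0.00167) and the helicase bel (-0.36 ± 0.09, 0.00706). Without dDP untreated arrays 2 and 3 the NAT1 and bel calls were lost (-0.16, 0.0952 and -0.24, 0.106). The elongation and release list had 3 of 6 genes lower in untreated dDP discs than in wild type, eRF3 (-0.25 ± 0.05, 0.00267), eRF1 (-0.18 ± 0.04, 0.0071) and eEF1delta (-0.15 ± 0.05, 0.023). In that comparison 15.9% of all probe sets and 30% of the bright ones were called lower. Without dDP untreated arrays 2 and 3 the 3 calls were lost, with values of -0.16 for eRF3 (0.133), -0.12 for eRF1 (0.176) and -0.16 for eEF1delta (0.115), whose difference did not shrink.

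Sesn, the fly sestrin that restrains TORC1, was higher in both mutants than in wild type. It had 8.61, 8.30 and 8.37 in irradiated de2f1 discs, against 7.32 and 6.74 in irradiated wild type (1.39 ± 0.20, 0.000384). It had 8.32, 8.49 and 8.84 in untreated de2f1 discs, against 7.22, 7.74 and 7.28 in untreated wild type (1.14 ± 0.18, 0.000796). Both calls held in every alternative run, 13 and 14. In dDP discs Sesn was higher by 0.90 ± 0.20 irradiated (0.00403) and 0.78 ± 0.18 untreated (0.00389). The irradiated dDP call was lost without wild type irradiated array 3 (0.61, 0.0884), and the untreated one without dDP arrays 2 and 3 (0.77, 0.0575). Lk6 was higher in de2f1 by 0.41 ± 0.07 irradiated (0.00138) and 0.27 ± 0.06 untreated (0.0118), and the untreated call was lost without wild type array 1 or de2f1 array 1 or 2 (0.0538 to 0.0583). gig, the fly TSC2, was higher by 0.22 ± 0.05 in untreated de2f1 discs (0.0184), and that call was lost without wild type array 2 or 3 or de2f1 array 1 or 3 (0.0557 to 0.0763). In untreated dDP discs gig was higher by 0.25 ± 0.05 (0.00293), a call lost without dDP arrays 2 and 3 (0.21, 0.0664). PPP1R15 was lower in irradiated de2f1 discs (-0.31 ± 0.06, 0.00331), and that call was lost without wild type array 3 (0.0637). Over the list, 2 regulators were higher and 2 lower in irradiated de2f1 discs, and 3 higher and 2 lower in untreated ones. The shares of all probe sets were 3.68% and 4.94% irradiated, and 3.89% and 5.1% untreated. Those of the bright probe sets were 6.49% and 6.79% irradiated, and 5.56% and 6.74% untreated.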

How the data were processed

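Labelled RNA from eye discs (50 ng total input, per the labels' protocols) was hybridised to 17 Affymetrix arrays. The authors deposited log2 probe set summaries, for which the submitters' processing notes name RMA. The RMA version, the probes of each set and a genome build are not given in the sources used here, and the log base was taken from the range of values, 3.25 to 14.77. The number of arrays limits the precision.

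Array medians were 5.82 to 5.99 and no further scaling was done. Of 18952 probe sets, 183 controls were left out of the tests. Names came from the platform annotation: 13647 probe sets had 1 symbol, 402 several and 4720 none. Of the eIF genes, eIF4B had 4 probe sets, eIF4EHP 2, and 2 probe sets shared by eIF4E7 and another gene were left out.

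limma 3.58.1 in R 4.3.3 fitted 1 mean per group over all arrays (eBayes, prior of 2.56 degrees of freedom), with Benjamini-Hochberg adjustment over all 18769 probe sets. Errors are SEs of the contrast. Scripts were tested on simulated data. Tables were made in pandas 2.3.3 under Python 3.11.15, and figures in matplotlib 3.10.9. Values on every array are given for up to 6 called members per direction with the largest change in each contrast, for eIF4E1, eIF4A, eIF4G1, eIF5 and eIF6 and for called paralogs. Up to 3 called genes per list and contrast with the smallest adjusted p, crc and NAT1 were named. Of the lists, Thor, cup, pix, Tor, RpS6, Rheb, Lnk, chrb, eEF1alpha1, eEF1beta and eEF2 were not analysed here. Members and lists were chosen with earlier results of these data known. The alternatives are those named in the closing section. Those for genes of the other lists were chosen after seeing the data.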

Additional observations from a re-analysis of the deposited data

How the results depend on the processing

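The alternatives were run for eIF genes called in a contrast and for eIF4E1, eIF4A, eIF4G1, eIF5 and eIF6. Of these values 1092 kept their side of the threshold, 180 lost a call, 24 gained one and 2 reversed. A reversal was counted only where the gene was called in either fit. Some uncalled values among the 1092 changed sign, such as eIF6 for untreated dDP against wild type without dDP arrays 2 and 3. The reversals were those of eIF4EHP on its other probe set, 0.067 for dDP against wild type and 0.12 for dDP against de2f1, both untreated. The number of eIF genes called after irradiation in dDP, 3, was 5 with a trended prior or without the 40% dimmest probe sets, 9 with array weights, and 1 with the contrast's arrays alone or the salivary gland mean as a covariate. In de2f1, 1 became 3 with array weights or the actin difference as a covariate, and 2 with the arrays alone. In wild type, 4 became 2 with the arrays alone. For dDP against wild type, untreated, 15 became 6 with the arrays alone, 8 with the actin covariate and 5 without untreated dDP arrays 2 and 3. For dDP against de2f1, 11 became 1, 5 and 4 under these, and 6 with the salivary covariate. In irradiated discs, 8 for dDP against wild type became 13 with a trended prior and 4 with the arrays alone, and 2 for de2f1 became 4 with array weights or the actin covariate. The F test's 19 became 29 with array weights. Leaving out 1 array gave 1 to 11, 1 and 1 to 4 calls after irradiation (dDP, de2f1, wild type), 11 to 21, 1 to 2 and 4 to 17 between untreated genotypes (dDP and de2f1 against wild type, dDP against de2f1), and 5 to 10 and 0 to 2 in irradiated discs (dDP, de2f1). The median change of the general factors became -0.076 after irradiation in dDP, 0.091 and 0.075 for untreated dDP against wild type and de2f1, and -0.069 for the dDP difference of effects under quantile normalization. The actin covariate gave -0.039 and -0.032 for the 2 untreated dDP comparisons. Without dDP arrays 2 and 3 they were -0.021 and -0.033, and the difference of effects was 0.024. Leaving out 1 array moved it from -0.036 to 0.00597 for dDP and from -0.048 to 0.0051 for de2f1 against irradiated wild type.

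Residual correlations of same-numbered arrays ran from -0.395 to 0.376, and were 0.082 and 0.376 for the 2 wild type pairs of irradiated and untreated arrays. Residuals from means of 2 or 3 arrays are not independent, so this cannot decide whether same-numbered arrays were paired. The replicate number as a block gave 2, 1 and 3 calls after irradiation in dDP, de2f1 and wild type, 15 and 2 for untreated dDP and de2f1 against wild type, and 11 for dDP against de2f1. Signals near 4.60 carry little information, which limits the paralogs, and 2 irradiated wild type arrays limit every comparison with them.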
